A study of Mus musculus with 25 samples.

Results

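The MYC family and its partners were followed here through 6 genes: Myc and Mycn, the common partner Max, and the antagonists Mxd1, Mxd4 and Mxi1. They were found by gene symbol in the platform annotation and are 6 of the 18193 genes that the arrays name with 1 symbol. They were read by 14 probe sets, of which Myc and Max had 1 each, Mxi1 had 2, Mycn and Mxd1 had 3 each and Mxd4 had 4. A probe set is a group of short probes for 1 transcript region.

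The study measured RNA from engineered and native mouse cells on 25 Affymetrix Mouse 430 2.0 arrays in 10 groups. Induced macrophages (iMac) came from the C10 pre-B cell line, converted with estradiol, IL-3 and CSF-1. Before conversion they had received a lentiviral scramble, Ebf1 or Pou2af1 shRNA, followed by puromycin selection, with 2 arrays in each group. The induced hepatocyte (iHep) lines were independent derivations from C57BL/6J embryonic fibroblasts of day E13.5, serially transduced with Foxa1 and Hnf4a retroviruses (n = 3). Further iHeps carried a lentiviral scramble or Cdx2 shRNA, again with puromycin (n = 4 per group). Engrafted iHeps (n = 2) were sorted by green fluorescence from the colons of Rag2gammac-/- mice damaged with dextran sulphate (DSS), 12 days after transplantation. The native groups were colon crypts of 8-week Rag2gammac-/- mice, E14.5 fetal liver and adult liver, the last 2 from C57BL/6J mice (n = 2 each). Adult liver is labelled both as whole liver at 8 weeks and as collagenase-isolated hepatocytes at 10 weeks, so the cells it held are not settled.

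MYC proteins are transcription factors of the basic helix-loop-helix leucine zipper class. They bind DNA only as dimers with MAX, at E-box sequences near genes for ribosome building, metabolism and the cell cycle. MXD proteins and MXI1 pair with the same MAX, occupy the same sites and recruit SIN3 and histone deacetylases, so they act against MYC. MYC is abundant in dividing cells such as those of the lower colon crypt, MYCN in many embryonic tissues, and MXD1 typically in cells that leave the cycle to mature.

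Promoter windows of RefSeq (GRCm38.p6) were at hand for 5 of the 6 genes, with 3 start sites for Mxi1. The 250 bases before each start were searched on both strands for the E-box CACGTG, the site that MYC-MAX and MXD-MAX dimers share, and for TTTGGCGC, an E2F site type of cell cycle genes; the 2 motifs share no overlap. The E-box stood in 6.02% of all 32851 windows of that length and in the Mxd4 window alone among these 5 genes. The E2F type stood in 0.42% of all windows and 2 times in that of Mycn, 183 and 168 bases before the start. Both stretches are shown because they carry, in capitals, the letters through which this family is bound or regulated elsewhere; a match is a description of the sequence and not a measured site.
Mxd4, chr5:34187864-34187960, minus strand: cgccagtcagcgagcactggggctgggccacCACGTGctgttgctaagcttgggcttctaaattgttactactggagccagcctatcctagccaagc
Mycn, chr12:12941937-12942079, minus strand: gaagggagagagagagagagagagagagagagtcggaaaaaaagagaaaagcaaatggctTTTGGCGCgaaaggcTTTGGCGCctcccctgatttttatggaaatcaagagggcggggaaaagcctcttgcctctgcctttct

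In the same build Myc lies at chr15:61985341-61990361, Mycn at chr12:12936093-12941836, Max at chr12:76937269-76962323, Mxd1 at chr6:86647044-86669234, Mxd4 at chr5:34176580-34187710 and Mxi1 at chr19:53310128-53373293.

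Values are the deposited RMA signals on the log2 scale, where a difference of 1 is a doubling of signal. Each gene was tested through the probe set with the highest mean signal, and its other probe sets are given where they bear on a call. Groups were compared with limma, and a gene is said to have risen or fallen where its Benjamini-Hochberg adjusted p over all genes was under 0.05. The 40th percentile of an array, between 5.52 and 5.80, served as the mark for low signal. The number of arrays limits the precision, and most groups held 2.

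Some arrays stood apart from their groups. Markers of other cells differed between the 2 engrafted iHep arrays: the mean of 6 leukocyte markers was 5.12 in replicate 1 and 7.36 in replicate 2, that of 6 macrophage markers 5.10 and 7.82, and that of 6 fibroblast markers 6.56 and 9.76. In the adult liver arrays 5 Kupffer cell markers averaged 10.70 and 8.38, and fetal liver held erythroid signal, with 5 markers averaging 10.76 and 11.05. Fetal liver also held leukocyte (10.34 to 10.76) and macrophage (9.64 to 10.14) signal. Engrafted iHeps had all 10 colon epithelium markers above the low mark (array means 11.33 and 10.63, against 12.09 to 12.11 in colon and 6.46 to 6.69 in iHeps). In the iHep lines only 3 of 7 hepatocyte markers were above the mark in all 3 arrays, with array means of 6.60 to 8.51 against 14.06 to 14.14 in adult liver. In every iMac group all 5 B lineage markers and at least 5 of 6 macrophage markers were above the mark. Their part in the results below was not tested, and in these bulk samples fewer cells of a type and less RNA per cell cannot be told apart.

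Myc, the broadly expressed member of the family, was lowest in adult liver and highest in induced macrophages. Adult liver gave 7.13 and 6.75. Fetal liver gave 10.46 and 10.02 and colon 10.65 and 10.18. No adult liver array came within 2 log2 units of any other array, while fetal liver and colon overlapped each other. The 3 iHep lines gave 11.37, 10.89 and 10.53, the scramble iHeps 10.61 to 10.88 (median 10.82), and the engrafted iHeps 11.10 and 11.73. The iHep lines and engrafted iHeps overlapped, and the lowest iHep line lay below the higher colon array. Induced macrophages gave 12.46 and 12.49 with scramble shRNA, 12.34 and 12.36 with Ebf1 shRNA, and 11.70 and 11.80 in the arrays labelled Pou2af1 shRNA, so that these 3 groups did not overlap. In the order of group means, from fetal liver through colon and the iHep groups to the engrafted iHeps and the Pou2af1 arrays, each group overlapped the next, apart from the Cdx2 shRNA and scramble iHeps.

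Against adult liver Myc rose in all 3 groups tested. It was higher by 4.0 ± 0.32 (SE) in iHeps (n = 3 and 2, adjusted p = 5.14e-06), by 3.30 ± 0.35 in fetal liver (adjusted p = 3.69e-05) and by 3.48 ± 0.35 in colon (adjusted p = 2.19e-05). These comparisons share the adult liver arrays. Myc did not pass the test between iHeps and fetal liver (0.69 ± 0.32, adjusted p = 0.128), iHeps and colon (0.52 ± 0.32, adjusted p = 0.193), engrafted iHeps and iHeps (0.48 ± 0.32, adjusted p = 0.233) or engrafted iHeps and colon (1.00 ± 0.35, adjusted p = 0.0774). The engrafted difference from colon passed at 1.32 without engrafted replicate 1 (adjusted p = 0.0383) and with all 25 arrays in 1 model (adjusted p = 0.00348). The latter model also passed Myc between iHeps and fetal liver (adjusted p = 0.0149) and between iHeps and colon (adjusted p = 0.0464). With the scramble iHeps in place of the iHep lines, Myc passed on engraftment (0.63, adjusted p = 0.0133) and against fetal liver (0.54, adjusted p = 0.0351). Adult liver, the group with the lowest Myc, also had the lowest proliferation markers, with array means over 6 markers of 5.78 and 6.68 against 9.29 in colon, 11.35 to 12.04 in iHeps and 12.61 to 12.72 in fetal liver. Induced macrophages had the highest Myc and proliferation means of only 7.44 to 7.64.

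**Figure D1:**
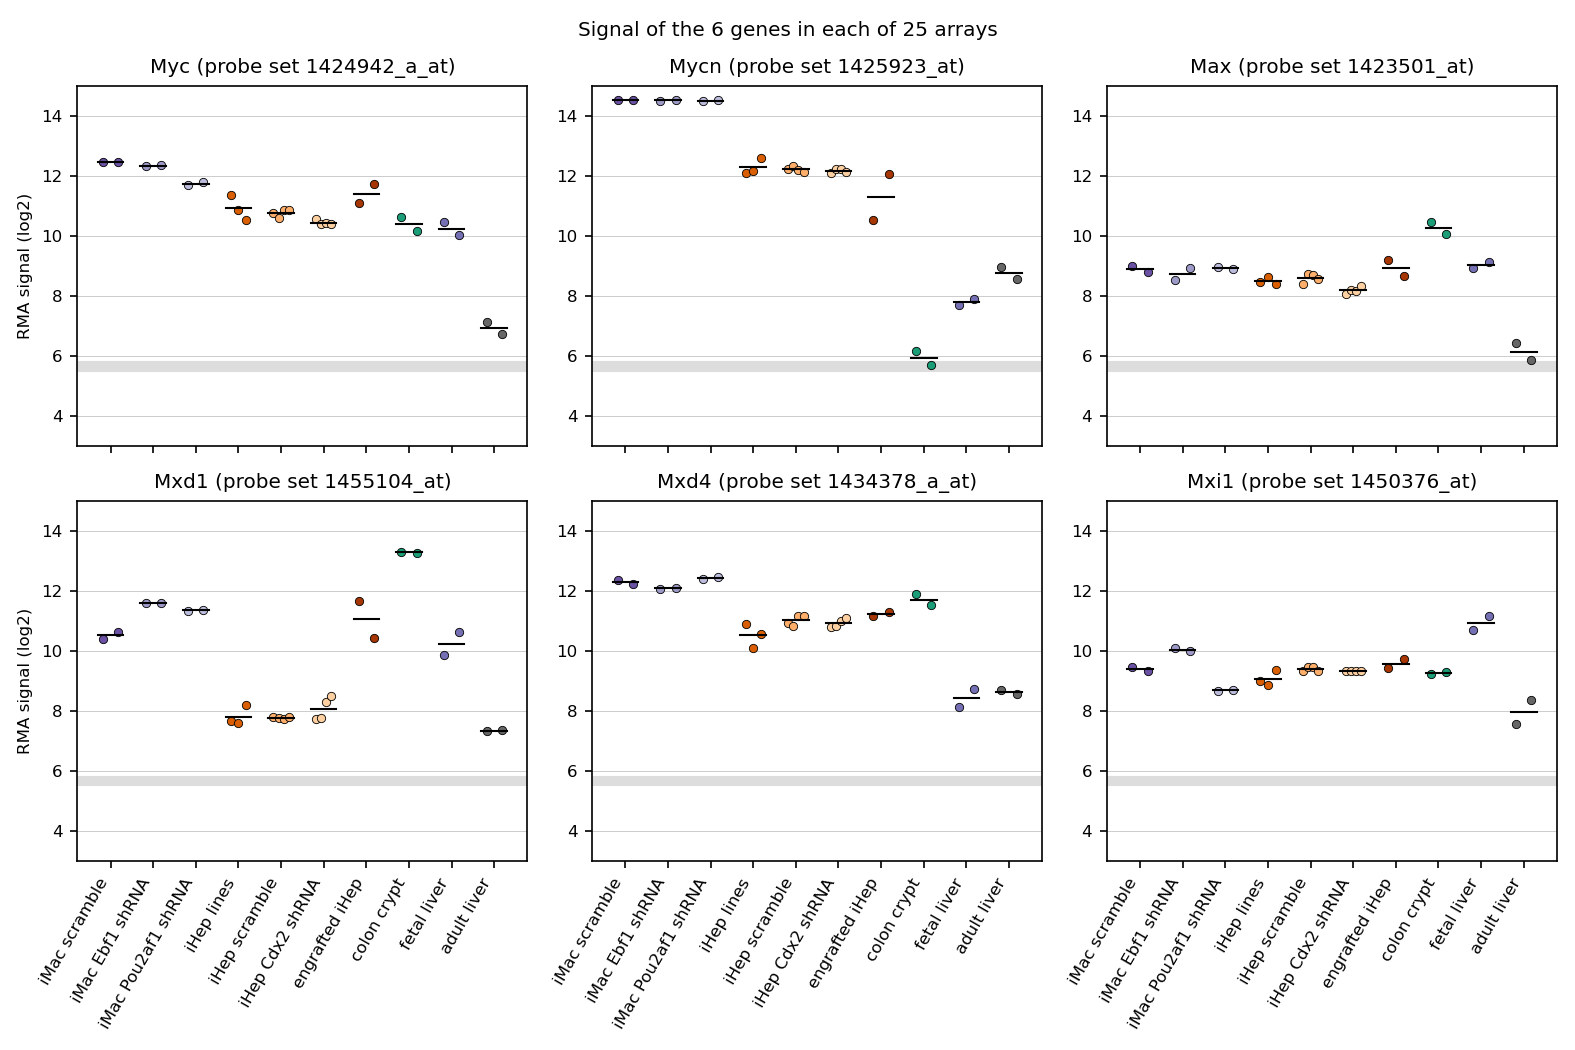
RMA signal (log2) of each gene's tested probe set in every array, by group; points are arrays, lines group means, and the grey band the range of the arrays' 40th percentiles (5.52 to 5.80). Myc and Max are lowest in adult liver, Mxd1 is highest in colon (13.30 and 13.27), and the Mycn probe set separates engineered from native groups.

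Mycn, the relative of Myc best known from embryonic tissue and neuroblastoma, gave no single answer, because its 3 probe sets disagreed. Probe set 1425923_at, the brightest and therefore the tested one, gave 12.12, 12.18 and 12.61 in the iHep lines. It gave 10.55 and 12.07 in engrafted iHeps. It gave 6.18 and 5.71 in colon. Groups on this probe set were far apart: the 3 iMac group means were 14.52, 14.52 and 14.51, every shRNA iHep array between 12.11 and 12.34, fetal liver at 7.71 and 7.91 and adult liver at 8.98 and 8.57. All 19 arrays of engineered, virally transduced cells (10.55 to 14.54) were above all 6 arrays of native tissue (5.71 to 8.98). Whether sequence other than Mycn adds to this signal was not tested, and the use of viral vectors and the engineered state cannot be told apart.

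Probe set 1417155_at ranked the groups almost in reverse. It gave 7.46 and 7.27 in colon and 7.28 and 6.89 in fetal liver. It gave 4.17, 4.52 and 5.05 in the iHep lines. It gave 4.26 and 4.77 in adult liver and 3.49 to 4.56 in the 6 iMac arrays. Signal was above the low mark in only 5 of 25 arrays, namely both colon arrays, both fetal liver arrays and engrafted replicate 2 (6.45, against 4.49 in replicate 1). Probe set 1425922_a_at ran from 5.87, 5.98 and 6.33 in iHeps through 7.42 and 7.56 in colon to 7.86 and 7.68 in engrafted iHeps. Over the 25 arrays 1425923_at and 1417155_at had a Pearson r of -0.80, and 1425922_a_at had an r of 0.08 with the former and -0.04 with the latter. These coefficients describe arrays that share groups and are no test.

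**Figure D2:**
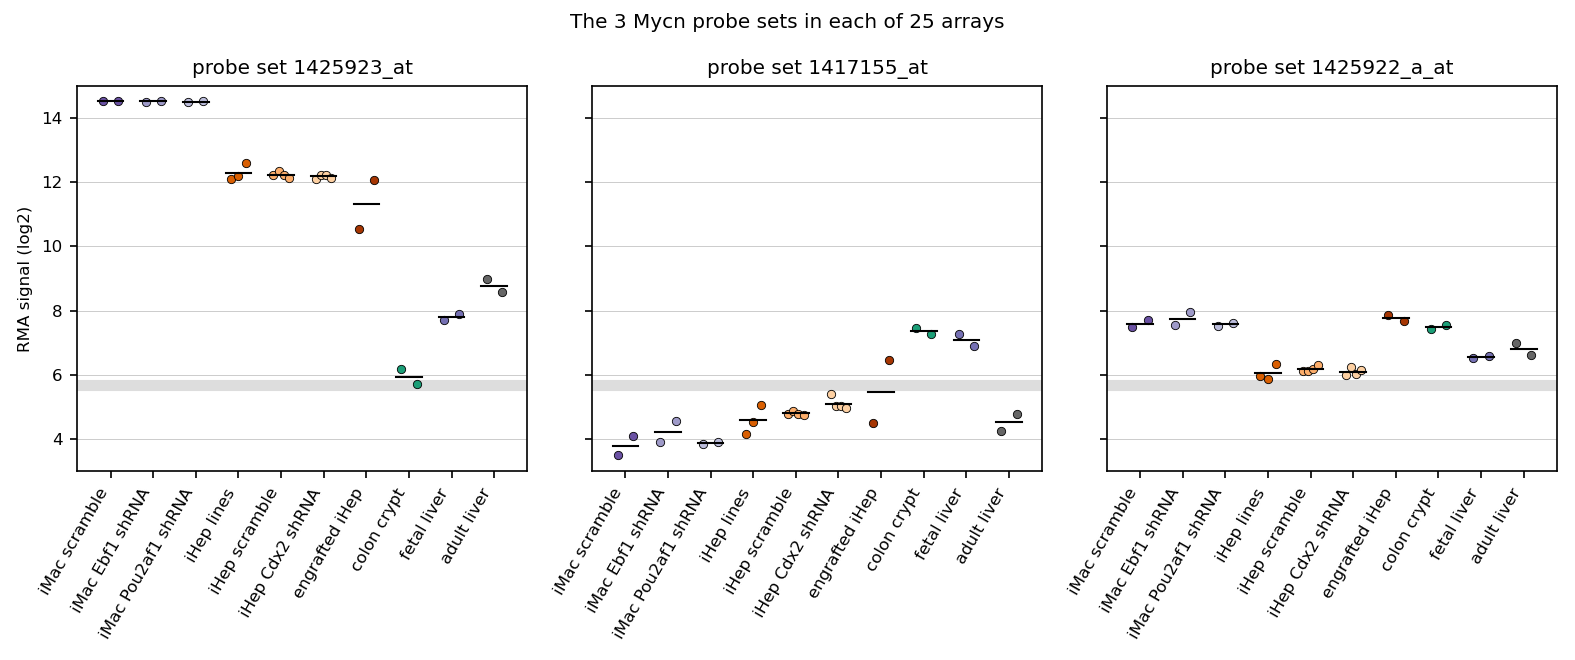
RMA signal (log2) of the 3 Mycn probe sets in every array; points are arrays, lines group means, and the grey band the range of the arrays' 40th percentiles. Probe set 1425923_at is lowest in colon (6.18 and 5.71), where 1417155_at is highest (7.46 and 7.27).

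The direction of every Mycn contrast with colon therefore turned on the probe set. Between iHeps and colon it was 6.36 ± 0.40 higher with 1425923_at (adjusted p = 1.89e-06). Colon lay near the low mark on this probe set (6.18 and 5.71), which limits the size of each contrast with colon on it. With 1417155_at the difference was -2.79 ± 0.50 (adjusted p = 0.000994), a size limited by background since all 3 iHep arrays were below the low mark. With 1425922_a_at it was -1.43 ± 0.22 (adjusted p = 0.000413). The last 2 values came from the fit of every probe set. Between engrafted iHeps and colon the 3 differences were 5.36 (adjusted p = 0.000121), -1.90 (adjusted p = 0.0393) and 0.29 (adjusted p = 0.45), in the same order. On engraftment, against the iHep lines, they were -0.99 (adjusted p = 0.0646), 0.89 (adjusted p = 0.162) and 1.71 (adjusted p = 0.000169). The first of these passed without engrafted replicate 2 (-1.75, adjusted p = 0.00162), and replicate 2 was the array with more leukocyte, macrophage and fibroblast marker signal. Colon minus adult liver was likewise -2.83 with 1425923_at (adjusted p = 0.000363) and 2.85 with 1417155_at (adjusted p = 0.00115). The latter size is limited by background, since adult liver was below the low mark on that probe set.

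The contrast of Myc with Mycn was read as the shift, between groups, of the within-array difference between the 2 genes, since levels of different probe sets cannot be set against each other. From colon to iHeps the Myc minus Mycn difference shifted by -5.84 with 1425923_at, that is, toward Mycn. With 1425922_a_at it shifted by 1.95, that is, toward Myc. With 1417155_at the shift was 3.31 in the same direction. Its size is limited by background, because that probe set was below the low mark in all 3 iHep arrays. This limit holds for each shift from iHeps with 1417155_at. The shifts from colon with 1425923_at are limited in size too, because colon lay near the low mark there. From colon to engrafted iHeps the shifts were -4.36, 2.90 and 0.72, and from iHeps to engrafted iHeps 1.48, -0.41 and -1.23, in the order 1425923_at, 1417155_at and 1425922_a_at. Groups overlapped only in the shift of -0.41 from iHeps to engrafted iHeps. Exact two-sided permutation tests gave p = 0.2 for those between the iHep lines and another group and p = 0.333 for those with 2 arrays on each side, the smallest p these designs allow, so none could pass (adjusted p = 0.367 over 11 comparisons with 1425923_at). The shift of -0.41 gave an exact permutation p of 0.8. Shared arrays link the 3 contrasts, and only the small movement of Myc itself, read by 1 probe set, does not depend on this choice.

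Max, the partner that every MYC and MXD protein needs to bind DNA, was highest in colon and lowest in adult liver. Colon gave 10.48 and 10.06. Adult liver gave 6.45 and 5.87, just above the low mark. All other arrays lay between 8.07 and 9.19, so colon and adult liver each stood clear of the rest. The iHep lines gave 8.48, 8.63 and 8.41 and engrafted iHeps 9.19 and 8.66, and these 2 groups did not overlap. Max was 1.76 ± 0.26 lower in iHeps than in colon (adjusted p = 0.000374) and 1.34 ± 0.28 lower in engrafted iHeps than in colon (adjusted p = 0.0124). The latter call was lost without colon replicate 1 (-1.13, adjusted p = 0.106). It rose against adult liver by 2.35 ± 0.26 in iHeps (adjusted p = 3.9e-05), by 2.87 ± 0.28 in fetal liver (adjusted p = 2.53e-05) and by 4.11 ± 0.28 in colon (adjusted p = 2.18e-06). The engrafted difference from iHeps did not pass (0.42 ± 0.26, adjusted p = 0.207).

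Mxd1, the antagonist tied to maturation, changed most often, in 8 of the 11 comparisons. Colon gave 13.30 and 13.27. The iHep lines gave 7.67, 7.58 and 8.19 and adult liver 7.34 and 7.36. Engrafted iHeps gave 11.67 and 10.43, above every iHep array of the 3 cultured groups (7.58 to 8.48) and below both colon arrays. Mxd1 was 5.47 ± 0.37 lower in iHeps than in colon (adjusted p = 3.4e-06), rose by 3.23 ± 0.37 on engraftment (adjusted p = 0.000119) and remained 2.24 ± 0.41 below colon (adjusted p = 0.0068). The rise on engraftment was 2.61 without engrafted replicate 1 and 3.86 without replicate 2, and both passed. Replicate 1, with less leukocyte, macrophage and fibroblast signal and more colon epithelium signal, had the higher Mxd1. The difference from colon lost its call without either colon array (-2.22, adjusted p = 0.0536, without replicate 1, and -2.25, adjusted p = 0.0518, without replicate 2).

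The other Mxd1 probe sets showed the same direction in these 3 contrasts. Probe set 1422002_at gave -4.80, 2.58 and -2.22, and 1434830_at gave -3.68, 1.88 and -1.80, and all 6 passed in the fit of every probe set. Fetal liver was where they parted. Its Mxd1 was 9.85 and 10.62 with the tested probe set, 10.91 and 11.44 with 1434830_at, and 7.02 and 7.38 with 1422002_at. Against adult liver the 3 differences were 2.89 (adjusted p = 0.000249), 4.42 (adjusted p = 2.22e-05) and 0.27 (adjusted p = 0.484). Fetal liver also had the erythroid markers given above. Mxd1 was 2.42 ± 0.37 lower in iHeps than in fetal liver (adjusted p = 0.000824). There 1434830_at kept the call and 1422002_at lost it (-0.48, adjusted p = 0.209). Between iHeps and adult liver Mxd1 did not pass (0.47 ± 0.37, adjusted p = 0.32), where 1434830_at did (1.03, adjusted p = 0.0485) and 1422002_at had the other sign (-0.21).

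Mxd4, another MAX-binding antagonist, was high in induced macrophages (12.07 to 12.47 over 6 arrays) and colon (11.91 and 11.51). It was low in fetal liver (8.12 and 8.75) and adult liver (8.69 and 8.56), which overlapped. The iHep lines gave 10.88, 10.09 and 10.57 and engrafted iHeps 11.17 and 11.30, between colon and the iHep lines. Mxd4 was higher in iHeps than in fetal liver by 2.08 ± 0.28 (adjusted p = 0.000382) and than in adult liver by 1.89 ± 0.28 (adjusted p = 0.000298). Its other probe sets were not all called there. Against fetal liver 1422574_at gave 1.58 and 1434379_at 1.35, which passed, and 1422575_at gave 0.59 (adjusted p = 0.0854). Against adult liver 1422574_at gave 1.53, which passed, 1434379_at gave 0.61 (adjusted p = 0.0833) and 1422575_at 0.05 (adjusted p = 0.867). It was 1.19 ± 0.28 lower in iHeps than in colon (adjusted p = 0.00584). That last call rested on this probe set and on colon replicate 1, without which the adjusted p was 0.0617. Between iHeps and colon the other 3 probe sets, in the order 1422574_at, 1422575_at and 1434379_at, gave 0.16, 0.40 and -0.18, and none passed. On engraftment 1434378_a_at gave 0.72 (adjusted p = 0.0599) and 1434379_at gave -0.83 (adjusted p = 0.0286), so the direction of Mxd4 depended on the probe set.

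Mxi1, also called MXD2, was read by 2 probe sets that told different stories about engraftment. The tested 1450376_at gave 8.99, 8.86 and 9.36 in iHeps. It gave 9.43 and 9.72 in engrafted iHeps. It gave 9.25 and 9.30 in colon. These 3 groups lay within 1 log2 unit, and neither iHeps against colon (-0.20 ± 0.28, adjusted p = 0.564) nor engrafted iHeps against iHeps (0.50 ± 0.28, adjusted p = 0.17) passed. Probe set 1425732_a_at gave 6.92, 6.93 and 7.13 in iHeps, 10.22 and 10.32 in engrafted iHeps and 10.60 and 10.45 in colon. With it, iHeps were -3.53 ± 0.24 from colon (adjusted p = 1.85e-06) and engrafted iHeps 3.27 ± 0.24 from iHeps (adjusted p = 4.45e-06). Engrafted iHeps and colon differed by only -0.26 with 1425732_a_at (adjusted p = 0.525). Over 25 arrays the 2 probe sets had a Pearson r of 0.28, given as a description. Mxi1 has 3 start sites in the RefSeq table, and which transcripts each probe set reads was not tested.

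In liver both Mxi1 probe sets had fetal above adult. The tested one gave 10.68 and 11.15 in fetal liver, its highest group, and 7.58 and 8.36 in adult liver, its lowest. It rose by 2.95 ± 0.31 in fetal over adult liver (adjusted p = 3.72e-05), was 1.85 ± 0.28 lower in iHeps than in fetal liver (adjusted p = 0.000767) and 1.10 ± 0.28 higher in iHeps than in adult liver (adjusted p = 0.00771). The other probe set, 1425732_a_at, passed in the same directions with differences of 1.51, -0.77 and 0.74 (adjusted p = 0.000795, 0.0327 and 0.0221). The higher adult array was replicate 2, with the lower Kupffer cell signal. Without adult replicate 1 the iHep difference was 0.71 (adjusted p = 0.0853), and with quantile normalization repeated it was 0.59 (adjusted p = 0.123). Colon against adult liver likewise went from 1.30 (adjusted p = 0.00472) to 0.70 (adjusted p = 0.0921) under that normalization.

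**Figure D3:**
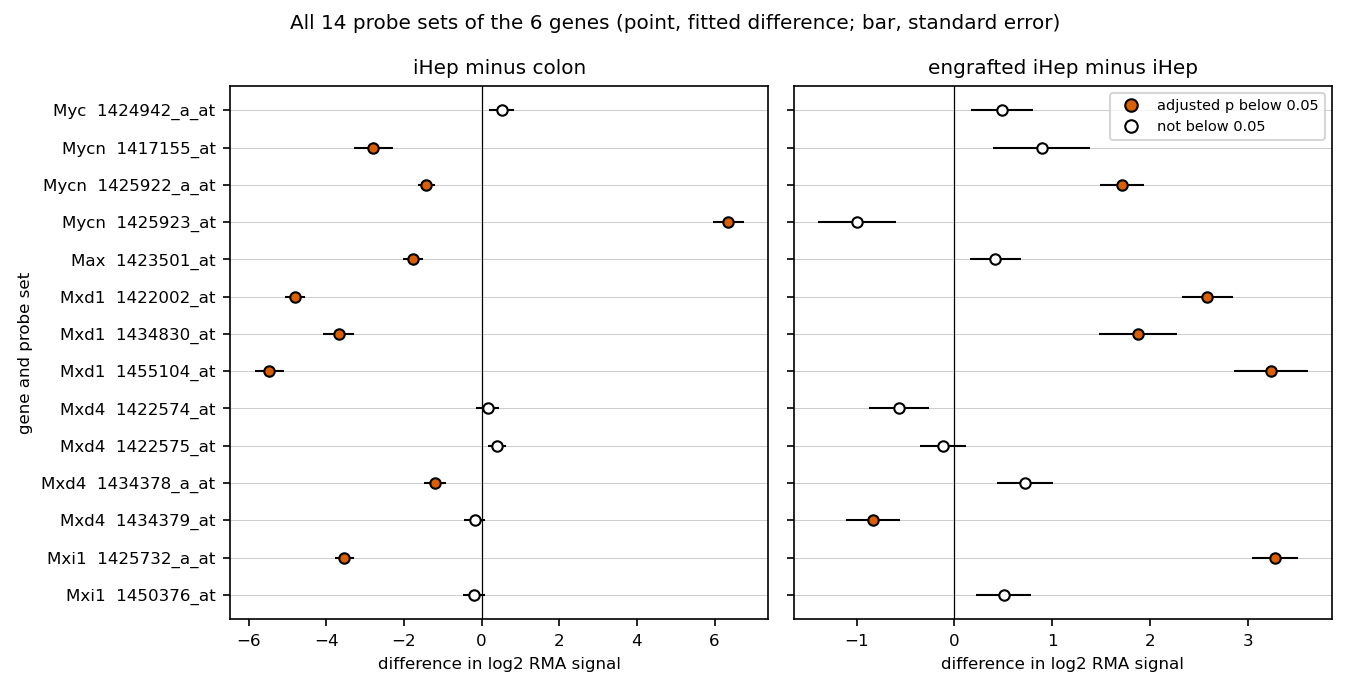
Fitted difference in log2 RMA signal (point) with its standard error (bar) for all 14 probe sets, iHep minus colon and engrafted iHep minus iHep; filled points had an adjusted p under 0.05. The 3 Mxd1 probe sets lie on the same side of 0 in both panels, while those of Mycn, Mxd4 and, in size, Mxi1 part.

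The counts of members called were read against those of all genes. Between iHeps and adult liver 5 of 6 rose and 0 fell, beside 37.8% and 18.2% of all 15262 genes (55.9% called). Between iHeps and colon 1 rose and 3 fell, beside 32.3% and 21.3% (53.6% called). On engraftment 1 of 6 rose and 0 fell, beside 18.2% and 29.7% (48.0% called). From colon to engrafted iHeps 1 rose and 2 fell, beside 7.1% and 9.66% (16.8% called). Between iHeps and fetal liver 2 rose and 2 fell, beside 19.9% and 13.1% (33.0% called). Between fetal and adult liver 4 rose and 0 fell, beside 31.1% and 18.2% (49.3% called). Between colon and adult liver 5 rose and 1 fell, beside 35.9% and 24.8% (60.7% called). The single rises in the iHep and engrafted contrasts with colon were Mycn through 1425923_at, and the fall in colon against adult liver was Mycn too, so each of these takes the other sign with 1417155_at. Mycn through 1425923_at is also 1 of the 5 rises between iHeps and adult liver (3.53) and 1 of the 2 between iHeps and fetal liver (4.49). Against adult liver the other probe sets gave 0.06 (1417155_at, adjusted p = 0.926) and -0.75 (1425922_a_at, adjusted p = 0.0156). Against fetal liver they gave -2.50 (adjusted p = 0.00366) and -0.49 (adjusted p = 0.127). The colon call split also depends on scaling: 59.1% of all its calls were higher, and 48.8% with quantile normalization repeated.

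**Figure D4:**
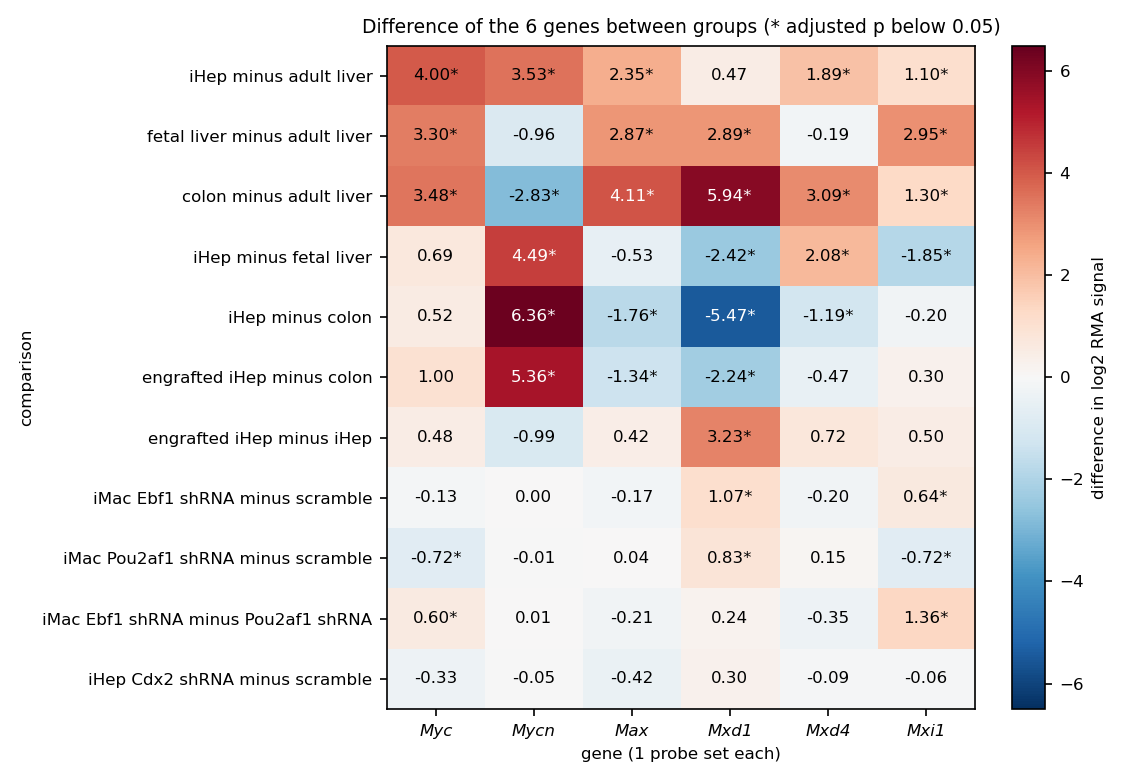
Difference in log2 RMA signal of the 6 genes (columns) in the 11 comparisons (rows), with a star where the adjusted p was under 0.05. The 6.36 and -5.47 of Mycn and Mxd1 between iHeps and colon stand in the same row as 0.52 for Myc.

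In induced macrophages the shRNA targets were read first. Ebf1, a B cell transcription factor, gave 8.31 and 8.38 with scramble and 7.41 and 7.21 with its shRNA (-1.04, adjusted p = 0.00389). Pou2af1, a B cell coactivator, gave 11.25 and 11.06 with scramble and 11.34 and 11.26 in the arrays labelled with its shRNA (0.14, adjusted p = 0.495). Pou2af1 mRNA was therefore not lower under its own label, and directions for those arrays rest on the label alone. Because the 2 shRNAs were compared with the same scramble arrays, their values are given side by side.

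Against scramble, 2 of 6 members rose and 0 fell with Ebf1 shRNA, beside 6.21% and 8.16% of 12484 genes (14.4% called). In the arrays labelled Pou2af1 shRNA 1 rose and 2 fell, beside 6.79% and 5.14% (11.9% called). Mxd1 was higher in both: scramble gave 10.39 and 10.63, Ebf1 shRNA 11.58 and 11.59 (1.07 ± 0.11, adjusted p = 0.00356), and the Pou2af1 arrays 11.33 and 11.36 (0.83 ± 0.11, adjusted p = 0.00977). All 3 Mxd1 probe sets passed in both contrasts. Mxi1 went opposite ways, from 9.46 and 9.34 with scramble to 10.11 and 9.98 with Ebf1 shRNA (0.64 ± 0.10, adjusted p = 0.0141) and 8.66 and 8.71 in the Pou2af1 arrays (-0.72 ± 0.10, adjusted p = 0.0119). Its other probe set gave 0.57 (adjusted p = 0.0456) and -0.46 (adjusted p = 0.0874). Myc fell in the Pou2af1 arrays by 0.72 on the log2 scale (SE 0.10, adjusted p = 0.00885) and did not pass with Ebf1 shRNA (-0.13, adjusted p = 0.427). Mycn, Max and Mxd4 did not pass in either.

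Between the 2 shRNAs directly, 2 of 6 members passed, beside 16.4% of all genes. Mxi1 was 1.36 ± 0.10 higher with Ebf1 shRNA than in the Pou2af1 arrays (adjusted p = 0.000731), and Myc was 0.60 ± 0.10 higher (adjusted p = 0.0103). Mxd4 did not pass (-0.35, adjusted p = 0.0651). It passed with the 60th percentile filter (adjusted p = 0.0337), the mean of its probe sets (adjusted p = 0.0181) and a variance trend (adjusted p = 0.00186), but not with all 25 arrays in 1 model. Mxd4 through 1422574_at (-0.80, adjusted p = 0.0487) and Mxd1 through 1434830_at (0.40, adjusted p = 0.0496) also passed. Only 6 arrays carried these contrasts. Mxd1 with Ebf1 shRNA and Mxi1 between the shRNAs passed with each array left out in turn. With all 25 arrays in 1 model, only Mxi1 between the shRNAs kept its call among these macrophage calls. In that model the adjusted p of Mxd1 was 0.0981 with Ebf1 shRNA and 0.276 in the Pou2af1 arrays, that of Mxi1 0.143 and 0.0967, and that of Myc 0.166 in the Pou2af1 arrays and 0.236 between the shRNAs. With 1 of 4 arrays left out, Mxi1 in the Pou2af1 arrays passed in 0 cases, Myc and Mxd1 there and Mxi1 with Ebf1 shRNA in 1 case each, and Myc between the shRNAs in 3, with adjusted p up to 0.0775. B lineage markers moved with the groups (array means 9.43 and 9.57 with scramble, 8.89 and 9.13 with Ebf1 shRNA, 10.34 and 10.43 in the Pou2af1 arrays). Macrophage markers moved too, without overlap and upward in both shRNA groups, as Mxd1 did: array means over 6 markers were 10.02 to 10.17 with scramble, 10.57 to 10.62 with Ebf1 shRNA and 10.93 to 10.99 in the Pou2af1 arrays. The part of these markers in the results was not tested.

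Cdx2 shRNA in iHeps lowered Cdx2, the intestinal homeobox factor, from 8.96 to 9.42 with scramble to 7.78 to 8.03 (-1.16, adjusted p = 0.00397, n = 4 each). With the arrays taken as unpaired, none of the 6 members passed in limma, beside 2.21% of 13650 genes. At an unadjusted p under 0.05 there were 2 members, Myc and Max, and 2139 genes in all. Max gave 8.42, 8.76, 8.71 and 8.59 with scramble and 8.07, 8.21, 8.18 and 8.34 with Cdx2 shRNA, without overlap (-0.42 ± 0.10, adjusted p = 0.069). With the replicate number as a block, which takes same-numbered arrays as pairs, Max alone passed (adjusted p = 0.0407), beside 760 of 13650 genes. Myc did not overlap either, at 10.78, 10.61, 10.86 and 10.88 against 10.57, 10.42, 10.44 and 10.39 (-0.33 ± 0.09, adjusted p = 0.104). How many of all genes had groups without overlap was not counted. Mxd1 overlapped, with Cdx2 replicates 3 and 4 at 8.30 and 8.48 and the other 6 arrays between 7.72 and 7.81 (0.30 ± 0.17, adjusted p = 0.446).

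Other proteins of the class form a wider network around MAX and its relative MLX, and 7 of their genes were listed. Mxd3, an antagonist found in dividing cells, was 7.40 ± 0.05 (SD, n = 3) in iHeps, 10.93 ± 0.58 (n = 2) in engrafted iHeps and 9.37 ± 0.13 (n = 2) in colon. Like Mxd1 it rose on engraftment, by 3.53 ± 0.25 (adjusted p = 7.18e-06), but unlike Mxd1 it stood above colon in engrafted iHeps, by 1.56 ± 0.28 (adjusted p = 0.00595). Mycl, the third MYC gene, rose on engraftment by 1.38 ± 0.35 (adjusted p = 0.00984) and was 1.52 ± 0.39 above colon (adjusted p = 0.0265). Mlxipl, the glucose-responsive ChREBP of liver, was 12.40 ± 0.17 in adult liver and 5.38 ± 0.14 in iHeps, which lies below the low mark (-7.02 ± 0.43, adjusted p = 1.11e-06). It rose on engraftment by 3.32 ± 0.43 (adjusted p = 0.000239), to 8.70 ± 1.16. Against such a dim group the size is limited by background.

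Of the same list, 4 of 7 rose and 1 fell between iHeps and adult liver, beside 37.8% and 18.2% of all genes. Between iHeps and colon 0 rose and 4 fell, beside 32.3% and 21.3%, and on engraftment 3 rose and 0 fell, beside 18.2% and 29.7%. The shares called, 5 of 7 and 4 of 7 in the first 2 contrasts, lay near those of all genes (55.9% and 53.6%). Mlx, the MAX-like partner, was 1.12 ± 0.21 lower in iHeps than in colon (adjusted p = 0.0015). Mlxip, the nutrient sensor MondoA, was 0.83 ± 0.31 lower there (adjusted p = 0.0446). Mnt, a MAX-binding repressor present in most cells, passed in none of the 11 comparisons. Mga, a MAX partner with a T-box domain, was 1.27 ± 0.29 higher in iHeps than in adult liver (adjusted p = 0.00437) and 0.52 ± 0.11 lower in the Pou2af1 arrays than with scramble (adjusted p = 0.0298). Mycl and Mlxipl were too dim to be tested in iMacs, and Mlxipl in the Cdx2 shRNA comparison.

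Genes known as MYC targets were read from 5 lists: ribosome biogenesis, metabolism, translation factors, the cell cycle and repressed genes. These lists say which genes MYC is known to act on, and their movement here is no measure of MYC protein. Between iHeps and adult liver the ribosome biogenesis list had a median difference of 2.21 against 0.26 over all genes. Of its 29 genes 25 rose and 0 fell, beside 37.8% and 18.2% of all genes. Those named by rule were Dkc1, which modifies ribosomal RNA (5.88 ± 0.32, adjusted p = 5.51e-07), Nop58, a nucleolar core protein (4.69 ± 0.25), and Ddx21, a nucleolar helicase (4.35 ± 0.37). In fetal against adult liver 23 of 29 rose and 0 fell, beside 31.1% and 18.2% of all genes. Between iHeps and fetal liver 0 of 29 passed, while 33.0% of all genes did, and the list's median was 0.19 against 0.05. Translation factors were alike, with 11 of 12 higher in iHeps than in adult liver (Eef1e1 4.47, Eif4e 3.72, Pa2g4 2.56) and 0 of 12 passing against fetal liver. The other lists did hold calls between iHeps and fetal liver: 3 of 25 metabolic targets rose and 5 fell, 2 of 14 cell cycle targets rose and 4 fell (median -0.58), and 5 of 13 repressed genes rose and 3 fell, beside 19.9% of all genes that rose and 13.1% that fell. Proliferation markers, given above for Myc, were also higher in iHeps and fetal liver than in adult liver. Their array means were lower in iHeps (11.35 to 12.04) than in fetal liver (12.61 to 12.72).

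Between iHeps and colon, where Myc itself did not pass, 17 of 29 ribosome biogenesis genes rose and 2 fell (median 0.99 against 0.22 over all genes). Rcl1, a ribosomal RNA processing factor, was 3.49 ± 0.36 higher, and Noc4l, a nucleolar factor, was 1.76 ± 0.35 lower. All 11 translation factors that passed, of 12 tested, were higher (median 1.26), led by Eef1e1 at 2.70. Of 25 metabolic targets 13 rose and 1 fell, beside 32.3% and 21.3% of all genes. Srm, which makes spermidine, was 2.31 ± 0.35 higher, and Hk2, a hexokinase, 1.80 ± 0.35 lower. Of 13 genes that MYC is known to repress, 2 rose and 4 fell, with Gadd45a, a growth arrest gene, 3.69 ± 0.56 lower; the 6 called of 13 are a smaller share than the 53.6% of all genes. Of 14 cell cycle targets 9 rose and 2 fell (median 1.42). With each array left out in turn, 10 to 18 ribosome biogenesis genes rose.

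On engraftment 4 of 29 ribosome biogenesis genes rose and 7 fell, beside 18.2% of all genes that rose and 29.7% that fell. Those with the greatest falls, Nop16 (-2.69), Rcl1 (-2.65) and Pno1 (-2.36), and those with the greatest rises, Noc4l (2.58), Dkc1 (1.90) and Gnl2 (1.73), are all factors of ribosome or nucleolar assembly. Of 12 translation factors 8 fell and 0 rose (median -0.76 against -0.22 over all genes), with Eef1e1 at -2.38 ± 0.34. That count was 3 to 8 with each array left out. In engrafted iHeps against colon 8 of 29 ribosome biogenesis genes rose and 0 fell, beside 7.1% and 9.66% of all genes. The count of rises rested on single arrays and was not kept with each array left out. The list's median then ran from 0.45 to 1.07.

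In induced macrophages genes of ribosome biogenesis fell in both contrasts with scramble. With Ebf1 shRNA 17 of 29 genes fell and 0 rose, beside 8.16% of all genes that fell (median -0.52 against -0.04). In the arrays labelled Pou2af1 shRNA 17 of 29 fell and 0 rose, beside 5.14% (median -0.51 against -0.03). Both counts use the same 2 scramble arrays. Dkc1 fell by 0.75 with Ebf1 shRNA and by 1.12 in the Pou2af1 arrays, and Polr1b, a subunit of RNA polymerase I, by 0.73 and 1.09. Of 25 metabolic targets 7 and 8 fell and 0 rose, among them Cad, the first enzyme of pyrimidine synthesis, at -1.11 and -0.88, and Shmt2, a mitochondrial serine enzyme, at -1.34 and -0.80. The cell cycle targets did not move this way: 2 of 13 rose and 0 fell with Ebf1 shRNA (median 0.05), and 2 rose and 1 fell in the Pou2af1 arrays (median -0.16). Of 12 translation factors 3 and 1 fell and 0 rose. Directly between the 2 shRNAs 1 of 29 ribosome biogenesis genes passed, beside 16.4% of all genes.

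These macrophage counts depended on the number of arrays. With 1 array left out, 1 to 5 of 29 ribosome biogenesis genes fell with Ebf1 shRNA and 1 to 3 in the Pou2af1 arrays, as calls over all genes dropped from 1794 to between 507 and 825 and from 1490 to between 355 and 450. The list's median stayed between -0.52 and -0.44 and between -0.55 and -0.48. Proliferation markers did not separate the groups, with array means of 7.44 and 7.54, 7.50 and 7.50, and 7.53 and 7.64 with scramble, Ebf1 and Pou2af1 shRNA. Of 11 repressed genes tested 6 rose and 1 fell with Ebf1 shRNA, beside 6.21% and 8.16% of all genes. Among them Thbs1, a matrix glycoprotein, was 0.99 ± 0.10 higher and Cdkn2b, a cell cycle inhibitor, 0.88 ± 0.10 higher. In the Pou2af1 arrays 4 rose and 3 fell, beside 6.79% and 5.14%. Rises of repressed genes and falls of metabolic targets were also fewer in each fit with 1 array left out. The median of the repressed genes then ran from 0.40 to 0.57 with Ebf1 shRNA and from 0.18 to 0.42 in the Pou2af1 arrays. With Cdx2 shRNA 0 of 29 ribosome biogenesis genes passed, beside 2.21% of all genes.

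**Figure D5:**
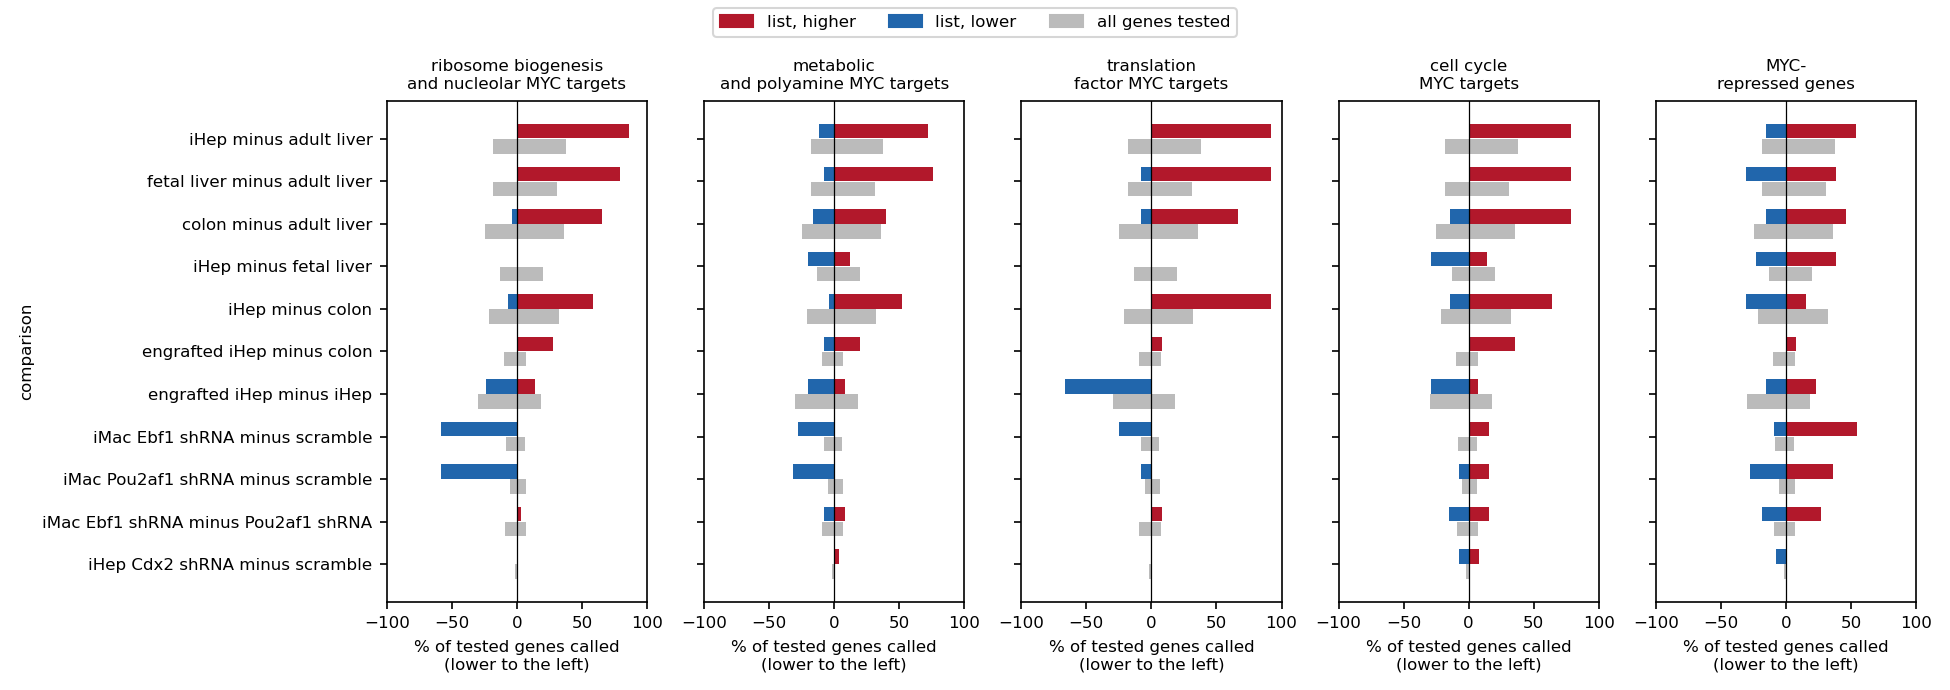
Percent of the tested genes of 5 lists of MYC targets that were called higher (red, right) or lower (blue, left) in each comparison, with the percent of all genes tested in grey below each bar. In the ribosome biogenesis panel the bars reach right against adult liver (25 of 29 genes in iHeps) and left in the macrophage shRNA contrasts with scramble (17 of 29 in each).

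Genes whose 10 group means followed a member most closely were found among 9830 genes by Pearson's r; the 10 points share 3 iMac and 4 iHep-derived groups and the coefficient is a description. For Myc they were Chordc1 (0.99), Rbm17, Ece2, Ier3 and Rrp1. For Max they were Wdr44 (0.98), Ankrd10, Me2, Chchd3 and Sbds, for Mxd1 Gse1 (0.98), Prelid2, Sh3tc1, Naip6 and Atp2a3, and for Mxd4 Rin2 (0.99), Sfxn3, Selenom, Cstb and Dusp4. Mxi1 had looser neighbours, Cdc25b (0.93), Xpo7, Taldo1, Fbxo30 and Cdt1. The Mycn probe sets shared no neighbour among their first 5: 1425923_at was led by Lrrc73 (0.98), 1417155_at by C430042M11Rik (0.98) and 1425922_a_at by Ccdc130 (0.98). Among the members themselves, Myc and Mxd4 (0.79) and Max and Mxd1 (0.76) were the closest pairs over the tested probe sets, and Mycn had an r of -0.12 with Mxd1.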

How the data were processed

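RNA of 25 samples was hybridised to 25 arrays. The values the authors deposited are log2 signals per probe set computed with RMA, whose version is not given in the sources used here; 100 ng of RNA per sample was biotin-labelled, per the labels. Values ran from 2.05 to 15.11 with array medians of 6.11 to 6.30. Of 45101 probe sets, 34945 had 1 symbol in the platform annotation, 932 several, 9160 were not listed and 64 were controls; 0 symbols changed through Entrez IDs of the RefSeq table. Each gene was represented by the probe set whose mean signal across the 25 arrays was highest.

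Differences were tested with limma 3.58.1 (lmFit, eBayes) in R 4.3.3, in 3 models: liver, colon and iHep groups (11 arrays, 15262 genes), iMac (6 arrays, 12484 genes) and shRNA iHeps (8 arrays, 13650 genes). A gene was tested where above the 40th percentile in at least 2 arrays of its model, and p was adjusted over the genes of each of 11 comparisons. The script was checked on simulated data. Figures used matplotlib 3.10.9 in Python 3.11.15.

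The members, lists and markers were chosen with earlier results of these data known. Named genes were the 6 members, 7 network genes, the shRNA targets, the called list members with the 3 highest and 3 lowest differences in the iHep contrasts with adult liver and colon and on engraftment, the same in other comparisons where over 5 were called, and the 5 closest genes by r; the text names part of these. The labels do not say that replicates were separate cultures or animals, apart from the independent iHep lines, so p-values may measure technical spread. Same-numbered arrays deviated together only in the Cdx2 model (r over genes 0.53, 0.32, 0.58 and 0.44). This was taken as pairing from the data, since the labels do not state it. The main fit left these arrays unpaired, and the replicate block gives the paired reading. The other models ran from -0.15 to 0.10 and were not paired. Alternatives covered the filter, the probe set choice, centring, repeated quantile normalization, the variance model, all arrays in 1 model, the replicate block, the scramble iHeps in place of the lines, and each array left out; reading Mycn from its other 2 probe sets and pairing the Cdx2 arrays in the Myc minus Mycn shift were added after seeing the data.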

Additional observations from a re-analysis of the deposited data

Results flagged for a closer look

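With Cdx2 shRNA, replicate 1 gave the highest Mycn signal on probe set 1417155_at, 5.39 against 4.96 to 5.03 in the other 3 arrays, a gap of 0.84 of the group's range. This lies below the low mark of the arrays. Of 28 sets of 4 arrays examined for such gaps 1 stood out, and chance gives about 1 in 20.

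The effects of the Ebf1 shRNA and of the arrays labelled Pou2af1 shRNA on induced macrophages differed for 2 members when the shRNAs were compared directly. Mxi1 was higher with Ebf1 shRNA by 1.36 on the log2 scale (limma adjusted p = 0.000731, higher in 2 of 2 arrays). Myc was higher by 0.60 (limma adjusted p = 0.0103, higher in 2 of 2 arrays).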

How the results depend on the processing

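With the probe set fixed, most of the 66 differences (6 members in 11 comparisons) kept their direction and their side of the threshold: all 66 with no filter and with shared probe sets left out, 65 with the 60th percentile filter, with centring and with the replicate block, 63 with a variance trend, 60 with quantile normalization repeated and 52 with all 25 arrays in 1 model. With the scramble iHeps in place of the lines 20 of 24 did. The filters, the variance trend and the model of all 25 arrays leave each fitted difference as it was. None of the members' probe sets is of the shared kind, so leaving those out did not alter the differences either. In these settings direction could not change, and only the adjusted p was open to change. The replicate block changed only Max with Cdx2 shRNA, where members called went from 0 to 1. Centring moved the median of all genes by up to 0.16 and repeated quantile normalization by up to -0.28, in colon minus adult liver. Single members could move further. With repeated quantile normalization Mxi1 went from 1.10 to 0.59 in iHep minus adult liver. It went from 1.30 to 0.70 in colon minus adult liver.

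Choosing other probe sets changed directions. The Myc minus Mycn shift was 3.19, 1.18 and, with the mean of the probe sets, 0.19 between iHeps and fetal liver, in the order 1417155_at, 1425922_a_at, mean, 3.31 and 1.95 between iHeps and colon, -0.41, -1.23 and -0.0522 on engraftment, and 2.90 and 0.72 between engrafted iHeps and colon. With Cdx2 shRNA it was -0.28 (exact permutation p = 0.0571) and -0.39 with the mean (exact permutation p = 0.0286, arrays taken as unpaired). With 1425922_a_at it was -0.25 (exact permutation p = 0.0571). With 1417155_at it was -0.63, which compares background signal, since all 8 arrays were below the low mark there. The mean takes in this background reading. With same-numbered arrays as pairs, a replicate block added after seeing the data, each of these shifts had an exact permutation p of 0.125, the smallest that 4 pairs allow. Mycn differences that changed sign with 1417155_at were -2.50, -2.79, 0.89, -1.90, 2.57 and 2.85 (iHep minus fetal liver, iHep minus colon, engraftment, engrafted minus colon, fetal minus adult liver, colon minus adult liver). With 1425922_a_at they were -0.75, -0.49, -1.43, 1.71 and 0.68 (iHep minus adult liver, fetal liver and colon, engraftment, colon minus adult liver). With the mean of the probe sets they were 0.54, 0.45, 0.23, 0.061 and 0.0195 (engraftment, fetal and colon minus adult liver, Cdx2 and Pou2af1 shRNA), and with quantile normalization repeated -0.0068 with Ebf1 shRNA. Mxd4 turned to 0.16 and -0.57 with 1422574_at, to 0.40 and -0.12 with 1422575_at (iHep minus colon, engraftment), which also gave 0.28 (engrafted minus colon), -0.34 (colon minus adult liver) and -0.16 (Pou2af1), to -0.83 with 1434379_at and -0.20 with the mean on engraftment. Mxd1 turned to -0.21 with 1422002_at (iHep minus adult liver), and Mxi1 to -0.26 with 1425732_a_at (engrafted minus colon) and to 0.12 with the scramble iHeps (iHep minus colon). The cause was not tested.

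Members called on engraftment went from 1 to 2 with the mean of the probe sets, centring, repeated quantile normalization and the variance trend, and to 4 with every probe set and with all 25 arrays. With all 25 arrays 0, 0 and 1 were called with Ebf1 shRNA, in the Pou2af1 arrays and between them, and with every probe set 4 between them. With 1 array left out, members called ran from 1 to 2 on engraftment, 1 to 4 between engrafted iHeps and colon, 1 to 2 with Ebf1 shRNA, 0 to 1 in the Pou2af1 arrays and 1 to 2 between the shRNAs. Signs turned near 0. Over the arrays left out, Max ran from -0.36 to 0.0224 with Ebf1 shRNA and from -0.0585 to 0.13 in the Pou2af1 arrays, Mycn from -0.0172 to 0.0182, from -0.0252 to 0.0081 and, between the shRNAs, from -0.0086 to 0.0268, and Mxd4 from -0.50 to 0.12 (fetal minus adult liver).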
